A study of Mus musculus with 48 samples.

Results

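The 5 genes described here encode the enzymes that break down tyrosine in the liver, *Tat*, *Hpd*, *Hgd*, *Gstz1* and *Fah*, chosen by name because *Gstz1* is also the enzyme that metabolizes dichloroacetic acid (DCA). All 5 were among the 11275 genes of the frozen (FROZ) table and 4 were among the 6673 genes of the formalin-fixed paraffin-embedded (FFPE) table, which did not list *Hgd*. Of the 11353 genes in either table, 5 were therefore members, and 4 of the 6591 genes in both.

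Livers came from 24 male B6C3F1 mice, a hybrid strain used in carcinogenicity testing, that were 4 weeks old and drank water with DCA for 6 days. The vehicle group held 6 mice, and each dosed group held 6 as well: 198 mg/kg-d came from water with 1.0 g/L of DCA, 313 mg/kg-d from 2.0 g/L and 427 mg/kg-d from 3.5 g/L. Each liver gave 1 FROZ and 1 FFPE library. FROZ libraries were made from isolated RNA of mixed lobes and FFPE libraries from lysate of paraffin tissue, from lobes that were not all the same, so that lobe, input and preservation cannot be told apart between the tables. Expression was measured by TempO-Seq, which ligates 2 neighbouring detector oligos on their target transcript, amplifies the product and counts it.

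Tyrosine is broken down in hepatocytes by consecutive reactions. Tat, the tyrosine aminotransferase, removes the amino group. Hpd turns the resulting hydroxyphenylpyruvate into homogentisate, and Hgd opens the ring of homogentisate to give maleylacetoacetate. Gstz1, a glutathione transferase also known as maleylacetoacetate isomerase, converts this to fumarylacetoacetate, which Fah splits into fumarate and acetoacetate. The same Gstz1 protein dechlorinates DCA to glyoxylate with the help of glutathione and is inactivated by DCA in the process. That inactivation concerns the protein, while TempO-Seq measured RNA. Loss of FAH causes a hereditary tyrosinemia in humans, loss of HGD causes alkaptonuria, and *Tat* is a textbook target of glucocorticoid hormones.

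In the mouse genome (GRCm38, GENCODE annotation) the members lie apart, each as a protein-coding gene with several annotated transcripts. *Tat* lies on chromosome 8 from 109990437 to 109999803 on the plus strand and *Hpd* on chromosome 5 from 123171807 to 123182727 on the minus strand. *Hgd* lies on chromosome 16 from 37580153 to 37632020 on the plus strand. *Gstz1* lies on chromosome 12 from 87147165 to 87164723 on the plus strand, and *Fah* on chromosome 7 from 84585159 to 84606722 on the minus strand. None of the 50-base windows of *Tat*, *Hpd*, *Hgd* and *Fah* transcripts was found in a transcript of another gene, and for *Gstz1* 0.0197% were.

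The 250 bases before the RefSeq start (GRCm38.p6) are shown for *Hgd*, the only member that passed the test against vehicle, and for *Gstz1*, the DCA-metabolizing member, which did not. Capitals mark each match to CCAAT and to GGGCGG on either strand. The *Hgd* window is chr16:37579903-37580152 and the *Gstz1* window, at the first of its 2 listed starts, is chr12:87146915-87147164, both on the plus strand.
Hgd: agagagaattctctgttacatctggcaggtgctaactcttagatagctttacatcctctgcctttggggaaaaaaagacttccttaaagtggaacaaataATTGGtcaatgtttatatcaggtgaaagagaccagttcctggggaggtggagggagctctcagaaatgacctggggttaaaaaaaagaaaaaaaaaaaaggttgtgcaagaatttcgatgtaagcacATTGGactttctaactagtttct
Gstz1: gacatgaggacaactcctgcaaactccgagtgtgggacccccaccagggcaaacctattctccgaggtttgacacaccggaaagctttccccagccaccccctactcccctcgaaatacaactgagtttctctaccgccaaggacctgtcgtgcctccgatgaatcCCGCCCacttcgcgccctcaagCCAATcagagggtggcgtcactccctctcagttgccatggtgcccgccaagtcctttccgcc
The *Hgd* window had 38.8% G or C and 1 CpG, and the *Gstz1* window had 59.2% and 13 CpGs, against a median of 52.4% and 6 CpGs over 32851 windows of this length. CCAAT was matched 2 times before *Hgd* and 1 time before *Gstz1*, and 33.8% of all windows held it. GGGCGG was matched 1 time before *Gstz1* and was not among the letters before *Hgd*, and 32.7% of all windows held it. These matches describe the windows and say nothing of which factors bind them.

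Reads on listed genes, recovered from the smallest step of the deposited values, came to 6.69 to 9.84 M per FROZ library and 1.83 to 6.01 M per FFPE library (M, 1000000 reads). Between 12 and 61 genes were at 0 in a FROZ library and between 65 and 1580 in an FFPE library. The FFPE libraries with most genes at 0 belonged to the 198 and 313 mg/kg-d groups, with medians of 980.5 and 630.5 genes, against 277.5 in vehicle and 134 at 427 mg/kg-d. Hepatocyte markers were all listed in FROZ, 7 of 7, with summed levels of 36062 to 44046 CPM in vehicle and 27341 to 36014 CPM at 427 mg/kg-d. As deposited, the markers did not move one way at that dose. *Trf* fell by 0.75 on the log2 scale and *Hnf4a* rose by 0.45. The other 5 did not pass, among them *Alb* at -0.07, *Apoa1* at -0.31 and *Ttr* at 0.32. Under scaling by median ratios 4 of the 7 fell and 0 rose, beside 2847 of the 11275 genes called, so the called rise depended on the scaling. The FFPE table listed 6 of these 7, and their sum was 44335 to 56583 CPM in vehicle and 27450 to 32976 CPM at 427 mg/kg-d. Of these 6, 3 fell at 427 mg/kg-d, 0 rose and 3 did not pass. In these bulk samples fewer cells of a type and less RNA per cell cannot be told apart, and the cause of the marker differences was not tested.

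Whether any member differed from vehicle was tested by limma on log2(CPM + 1), with the false discovery rate (FDR, Benjamini-Hochberg) taken over all genes of a table. In FROZ livers *Hgd* rose at 427 mg/kg-d and along the dose, and no other member passed an FDR of 0.05 at any dose. None of 5 members passed at 198 mg/kg-d, where 1.56% of all genes did. None had an unadjusted p under 0.05, which 1924 of the 11275 genes had. None of 5 passed at 313 mg/kg-d, where 26.7% of all genes did. Of them 1, *Hgd*, had an unadjusted p under 0.05, beside 4208 of the 11275 genes. At 427 mg/kg-d 1 of 5 passed, where 30.1% of all genes did. For a linear dose term 1 of 5 passed, again *Hgd*, and 32.2% of all genes did. The median difference of all genes was 0.07, 0.11 and 0.10 on the log2 scale at 198, 313 and 427 mg/kg-d, and that of the 5 members was -0.06, -0.07 and 0.08. Under scaling by median ratios the median of the members was -0.15, -0.21 and -0.07, so its sign at 427 mg/kg-d turned with the scaling. With that scaling 124, 2378 and 2847 of the 11275 genes passed in order of dose. No member differed from vehicle by 2-fold in FROZ.

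**Figure D1:**
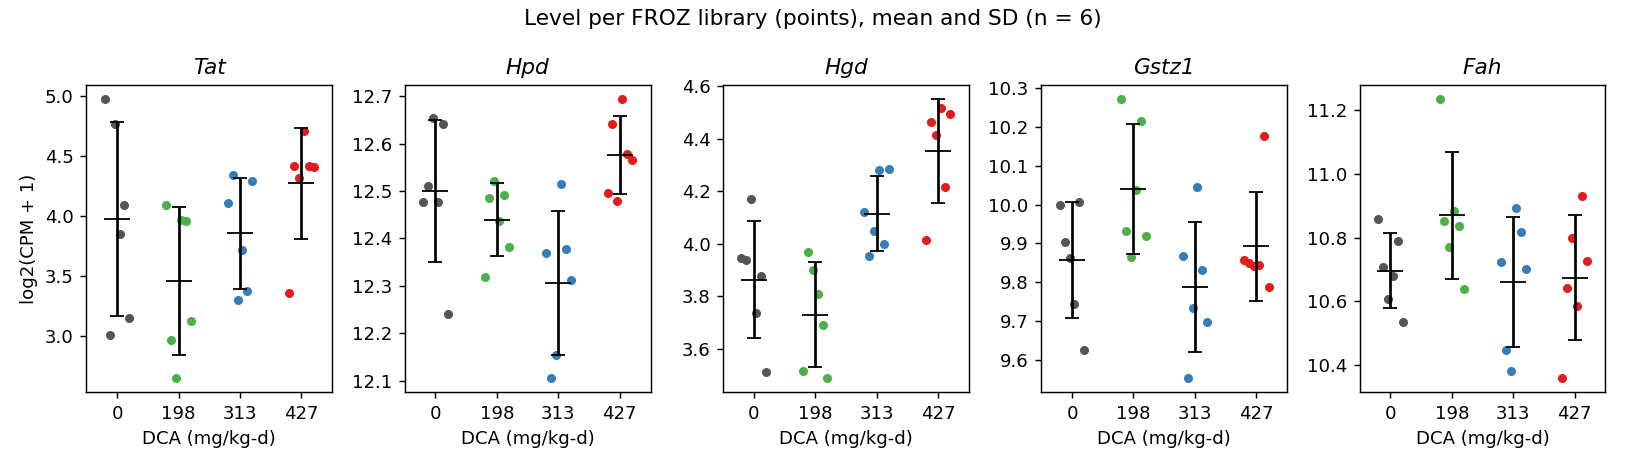
Level of each member in FROZ livers as log2(CPM + 1) against DCA dose in mg/kg-d, 1 point per library, with the mean and SD of 6 libraries in black and a separate vertical scale for each gene. *Hgd* had means of 3.86, 3.73, 4.11 and 4.35 from vehicle to 427 mg/kg-d, while the means of *Gstz1* were between 9.79 and 10.04.

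*Hgd*, the dioxygenase that opens the ring of homogentisate, was counted at a low level in FROZ livers, with 82.0 to 188 reads per library. Vehicle livers had 10.4, 14.02 and 17.0 CPM as the lowest, median and highest value. Livers at 198 mg/kg-d had 10.2, 12.5 and 14.7 CPM. All of these lay below the highest vehicle value. At 313 mg/kg-d the lowest, median and highest values were 14.5, 15.97 and 18.5 CPM. At 427 mg/kg-d they were 15.2, 20.7 and 21.9 CPM. At the highest dose 5 of 6 livers were above every vehicle liver, and the remaining one overlapped the vehicle range. The log2 difference from vehicle at 427 mg/kg-d was 0.49 ± 0.12 (SE), a 1.40-fold increase with a 95% interval of 1.19 to 1.66 (limma, FDR = 0.00196). At 313 mg/kg-d the log2 difference was 0.25 ± 0.12 (limma, FDR = 0.114), and at 198 mg/kg-d it was -0.13 ± 0.12 (limma, FDR = 0.594). The fitted slope was 0.12 ± 0.03 on the log2 scale per 100 mg/kg-d (limma, FDR = 0.00361). Under scaling by median ratios, which brought the median difference of all genes to -0.01, the *Hgd* difference at 427 mg/kg-d was 0.35 on the log2 scale and still passed. Among markers of other cell types, the summed level of 5 of 5 endothelial markers was 118 to 138 CPM in vehicle and 92.3 to 112 CPM at 427 mg/kg-d, with no defining marker at 0 in more than 1 library. Of these 5 endothelial markers 1 fell at 427 mg/kg-d and 4 did not pass, and 2 of the 5 differences were positive. The 6 of 7 listed macrophage markers summed to 76.3 to 115 CPM in vehicle and 64.0 to 82.8 CPM at 427 mg/kg-d, and 3 of the 6 fell. Of 7 stellate cell markers 1 fell, and none of 3 listed cholangiocyte or 3 listed lymphocyte markers passed. Under median ratios 3 endothelial, 3 macrophage, 1 stellate cell and 1 cholangiocyte marker fell, beside 2847 of all 11275 genes called. The part of these cell types in the *Hgd* result was not tested.

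The order of the dose groups was looked at between neighbouring doses in the same limma fit, a step chosen after the dose means had been seen. Between 198 and 313 mg/kg-d 1 of 5 members passed, and 11.7% of all genes did. This was *Hgd*, with a log2 difference of 0.39 ± 0.12 (limma, FDR = 0.0300), a call lost without animal 49, 53 or 54 of the lower group or 73, 76 or 78 of the higher one, with FDRs of up to 0.0777. *Gstz1* differed by -0.25 ± 0.09 in that step (limma, FDR = 0.0822). Between 313 and 427 mg/kg-d none of 5 members passed, and 3.07% of all genes did. At an unadjusted p under 0.05 there were 2 of the members (*Hgd* and *Hpd*) and 1975 of the 11275 genes. *Hpd* differed by 0.27 ± 0.09 in that step (limma, FDR = 0.120) and *Hgd* by 0.24 ± 0.12 (limma, FDR = 0.285).

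*Gstz1*, which isomerizes maleylacetoacetate and metabolizes DCA, was measured with 5531 to 10112 reads per FROZ library. Its lowest, median and highest values in vehicle livers were 788, 943 and 1027 CPM. At 198 mg/kg-d they were 931, 1013 and 1236 CPM. At this dose 3 of 6 livers lay above every vehicle liver. The values were 750, 880 and 1055 CPM at 313 mg/kg-d. They were 883, 919.7 and 1156 CPM at 427 mg/kg-d, and both groups overlapped vehicle. The log2 difference from vehicle was 0.18 ± 0.09 at 198 mg/kg-d (limma, FDR = 0.323). It was -0.07 ± 0.09 at 313 mg/kg-d (limma, FDR = 0.639) and 0.04 ± 0.09 at 427 mg/kg-d (limma, FDR = 0.814). As a ratio to vehicle the 95% interval was 0.993 to 1.30 at 198 mg/kg-d, 0.833 to 1.09 at 313 mg/kg-d and 0.896 to 1.17 at 427 mg/kg-d. The direction at 427 mg/kg-d turned with the scaling, to -0.11 on the log2 scale under median ratios.

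*Fah*, the hydrolase of the last step, had 1485, 1656 and 1855 CPM as lowest, median and highest value in FROZ vehicle livers. At 198 mg/kg-d it had 1594, 1838 and 2411 CPM, at 313 mg/kg-d 1334, 1677 and 1899 CPM, and at 427 mg/kg-d 1312, 1645 and 1951 CPM. Every dosed group overlapped the vehicle group. The log2 differences from vehicle were 0.17 ± 0.11, -0.04 ± 0.11 and -0.02 ± 0.11 in order of dose, with FDRs of 0.426, 0.844 and 0.903 by limma.

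*Hpd*, the dioxygenase that makes homogentisate, had 4837, 5767 and 6447 CPM as lowest, median and highest value in FROZ vehicle livers. At 198 mg/kg-d it had 5104, 5638 and 5874 CPM, at 313 mg/kg-d 4404, 5186 and 5851 CPM, and at 427 mg/kg-d 5710, 6084 and 6626 CPM. At 313 mg/kg-d 2 of 6 livers were below every vehicle liver, and at 427 mg/kg-d 1 of 6 was above every vehicle liver. The log2 difference at 313 mg/kg-d was -0.19 ± 0.09 (limma, FDR = 0.134), or -0.30 after subtracting the median of all genes. Scaled by median ratios it was -0.34 and passed (limma, FDR = 0.0128). The differences at 198 and 427 mg/kg-d were -0.06 ± 0.09 and 0.08 ± 0.09, with FDRs of 0.797 and 0.595 by limma. The sign at 427 mg/kg-d turned under median ratios, to -0.07.

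*Tat*, the aminotransferase that starts the pathway, was measured with 40.0 to 266 reads per FROZ library. Its SD on the log2 scale in FROZ vehicle livers was 0.81, against 0.12 for *Fah* and 0.15 for *Gstz1*. Vehicle livers had 7.04, 14.7 and 30.5 CPM as lowest, median and highest value. Livers at 198 mg/kg-d had 5.26, 11.1 and 16.02 CPM. The values were 8.82, 14.2 and 19.2 CPM at 313 mg/kg-d and 9.28, 20.3 and 25.1 CPM at 427 mg/kg-d. No dosed group separated from vehicle, although 2 of 6 livers at 198 mg/kg-d were below every vehicle liver. The log2 differences were -0.52 ± 0.31, -0.12 ± 0.31 and 0.30 ± 0.31 in order of dose, with FDRs of 0.411, 0.819 and 0.513 by limma. At 427 mg/kg-d the 95% interval ran from a 0.791-fold to a 1.91-fold level.

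**Figure D2:**
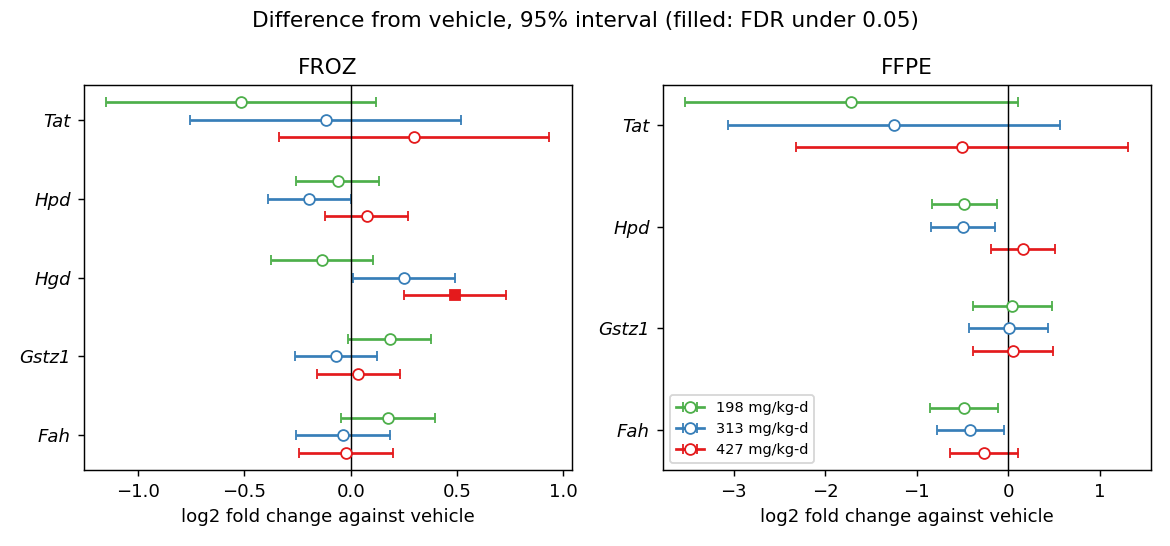
Log2 fold change of each member against vehicle with its 95% interval from limma, in FROZ (left) and FFPE (right, a wider horizontal scale), from 198 mg/kg-d (green) over 313 (blue) to 427 mg/kg-d (red). The filled square is *Hgd* at 427 mg/kg-d in FROZ, at 0.49, the only difference from vehicle with an FDR under 0.05.

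In FFPE livers none of the 4 listed members passed an FDR of 0.05 at any dose by limma. At 198 mg/kg-d 0.0599% of all genes passed, at 313 mg/kg-d 1.08% and at 427 mg/kg-d 2.41%. At an unadjusted p under 0.05 there were 2 of 4 members, *Fah* and *Hpd*, at each of the lower doses and 0 at the highest. Of the 6673 genes 785, 781 and 581 had such a p in order of dose. For a linear dose term none of 4 passed or had an unadjusted p under 0.05. Of all genes 2.17% passed, and 611 of 6673 had an unadjusted p under 0.05. The median difference of all FFPE genes was -0.19, -0.12 and 0.18 in order of dose, so the members are given beside it. With that median subtracted, *Hpd* differed by -0.29, -0.38 and -0.02 in order of dose and *Gstz1* by 0.23, 0.12 and -0.12. *Tat* then differed by -1.53, -1.13 and -0.68, and *Fah* is given below.

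*Fah* was measured at a high level in FFPE livers, with 8551, 9842 and 10909 CPM as lowest, median and highest value in vehicle. At 198 mg/kg-d it had 5169, 6677 and 10366 CPM, at 313 mg/kg-d 5958, 6926 and 9423 CPM, and at 427 mg/kg-d 7133, 8034 and 9812 CPM. The 198 mg/kg-d group split, with 3 livers at 12.3, 2 at 13.2 to 13.3 on the log2 scale and 1 between them. The log2 differences from vehicle were -0.48 ± 0.18, -0.41 ± 0.18 and -0.26 ± 0.18, with FDRs of 0.300, 0.353 and 0.860 by limma. Below every vehicle liver were 4, 4 and 5 of 6 livers in order of dose. After subtracting the median of all genes the differences were -0.30, -0.30 and -0.44. *Hpd* had 4914, 5846 and 6236 CPM in vehicle and 2832, 4056 and 5799 CPM at 198 mg/kg-d. It had 2904, 4080 and 5048 CPM at 313 mg/kg-d and 5619, 6127 and 8048 CPM at 427 mg/kg-d. For *Hpd* 4 of 6 livers at 198 mg/kg-d and 4 of 6 at 313 mg/kg-d were below every vehicle liver. At 427 mg/kg-d 3 of 6 were above every vehicle liver. Its log2 differences were -0.48 ± 0.17, -0.49 ± 0.17 and 0.16 ± 0.17, with FDRs of 0.287, 0.207 and 1.00 by limma.

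Across the 24 FFPE libraries the *Hpd* level went with the number of genes at 0 at r = -0.74 and with the reads at r = 0.69, and the *Fah* level at r = -0.53 and r = 0.66. These correlations pool the dose groups, which also differed in genes at 0 and in reads. The part of genes at 0 or of reads in the *Hpd* and *Fah* levels was not tested. With the libraries that had more than 800 genes at 0 left out, a step chosen after these numbers had been seen, 2 livers were kept in the 198 mg/kg-d group, 3 in the 313 mg/kg-d group, and all 6 in vehicle and at the highest dose. The log2 difference of *Hpd* was then -0.06 at 198 mg/kg-d and -0.43 at 313 mg/kg-d, and that of *Fah* was -0.14 and -0.28. None of the 4 members passed in that fit either.

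**Figure D3:**
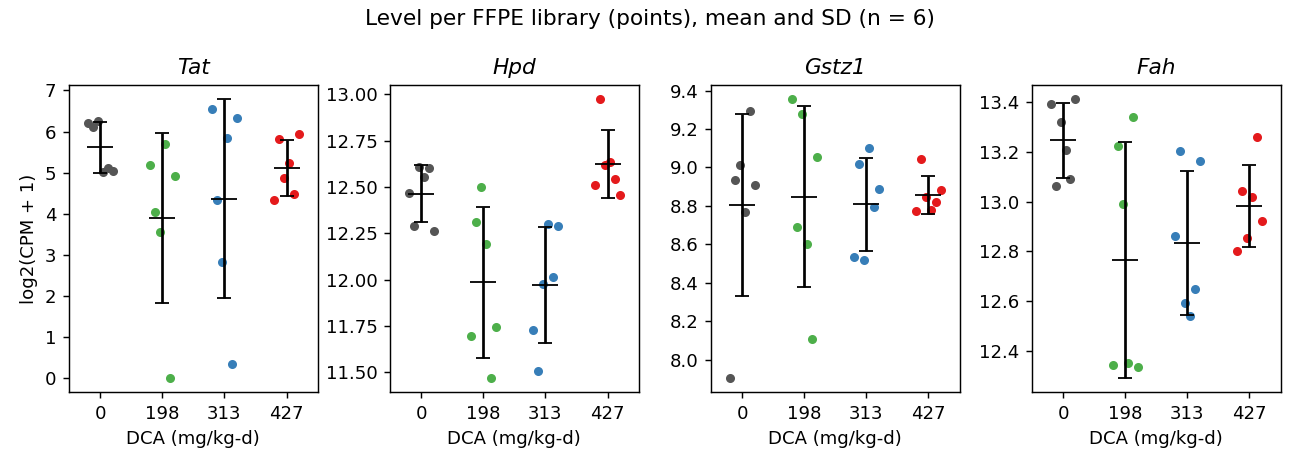
Level of the 4 members listed in FFPE livers as log2(CPM + 1) against DCA dose in mg/kg-d, 1 point per library, with the mean and SD of 6 libraries in black and a separate vertical scale for each gene. *Hpd* means were 12.46, 11.99, 11.97 and 12.62, and *Tat* was at 0 in 1 library at 198 mg/kg-d.

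*Gstz1* had 239, 485 and 627 CPM as lowest, median and highest value in FFPE vehicle livers. It had 275, 472 and 655 CPM at 198 mg/kg-d, 366, 458 and 547 CPM at 313 mg/kg-d, and 437, 455 and 527 CPM at 427 mg/kg-d. The dosed groups lay within or close to the vehicle range, with log2 differences of 0.04 ± 0.21, 0.00 ± 0.21 and 0.05 ± 0.21 and FDRs of 0.946, 0.998 and 1.00 by limma. These small differences turned negative at 313 and 427 mg/kg-d under median ratios, to -0.02 and -0.05. That scaling left the median of all FFPE genes at -0.19, -0.14 and 0.08 in order of dose. The 95% interval at 427 mg/kg-d, -0.38 to 0.49, was wider than the FROZ interval of -0.16 to 0.23.

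*Tat* had 31.4, 50.7 and 74.8 CPM as lowest, median and highest value in FFPE vehicle livers. At 198 mg/kg-d it had 0, 22.3 and 51.2 CPM, at 313 mg/kg-d 0.271, 37.8 and 92.2 CPM, and at 427 mg/kg-d 19.0, 32.2 and 60.6 CPM. The library at 0, a library of 3.94 M reads, allows up to 0.761 CPM (3 reads, counting error only), and the library at 0.271 CPM held 1 read. Both were below the other libraries of their groups, and both had more than 800 genes at 0. The log2 differences were -1.72 ± 0.89, -1.25 ± 0.89 and -0.51 ± 0.89, with FDRs of 0.447, 0.632 and 1.00 by limma. Without animal 53, at 0, the difference at 198 mg/kg-d was -0.94, and without animal 77, with 1 read, that at 313 mg/kg-d was -0.44. In the fit that left out the libraries with over 800 genes at 0, it was -1.82 at 198 mg/kg-d, from the 2 livers kept, and -0.11 at 313 mg/kg-d.

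Whether FFPE and FROZ libraries of the same animal differed in their response to DCA was tested by limma on the difference within each animal. None of the 4 members in both tables passed at 198 mg/kg-d, where 0.0303% of all genes did. There *Fah* and *Hpd* ranked 85 and 182 by p among 6591 genes (limma, unadjusted p = 0.00329 and 0.00756). None passed at 313 mg/kg-d, where 0% of all genes did and 540 genes had an unadjusted p under 0.05, among them 1 member, *Hpd*. None passed at 427 mg/kg-d, where 0.0303% of all genes did, and no member had an unadjusted p under 0.05. The response of *Fah* at 198 mg/kg-d was lower in FFPE by -0.66 ± 0.20 on the log2 scale (limma, FDR = 0.240), beside a median of -0.27 for all genes. That of *Hpd* was -0.42 ± 0.14 (limma, FDR = 0.273). For *Gstz1* the response difference was -0.14 ± 0.23, 0.07 ± 0.23 and 0.02 ± 0.23 in order of dose, with a 95% interval of -0.46 to 0.50 at 427 mg/kg-d.

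The level of a member in the 2 tables is a description only, since FROZ and FFPE values were scaled separately. *Fah* was higher in the FFPE library of all 24 animals, by 2.23 ± 0.42 (SD) on the log2 scale and by 2.17 after both tables were rescaled to the genes they share. *Gstz1* was lower in the FFPE library of all 24 animals, by -1.06 ± 0.39, or -1.12 rescaled. *Hpd* was at -0.19 ± 0.31, with 19 of 24 animals lower in FFPE, and *Tat* at 0.86 ± 1.57, with 20 of 24 animals higher in FFPE. Over the 24 animals the FROZ and FFPE levels went together at r = 0.70 for *Hpd* and r = 0.37 for *Tat*. For *Gstz1* r was -0.10 and for *Fah* -0.20.

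Among the members themselves, *Gstz1* and *Fah* varied together over the 24 FROZ libraries, at r = 0.77, and at r = 0.72 once the mean of each dose group was removed. *Hgd* and *Hpd* went together at r = 0.44, and at 0.69 within doses. *Hgd* and *Tat* had r = 0.48, or 0.32 within doses, and *Gstz1* and *Hgd* -0.20, or 0.06 within doses. In FFPE libraries *Gstz1* and *Fah* had r = -0.29. These correlations are descriptions over libraries that share a scaling and a run of dose groups.

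**Figure D4:**
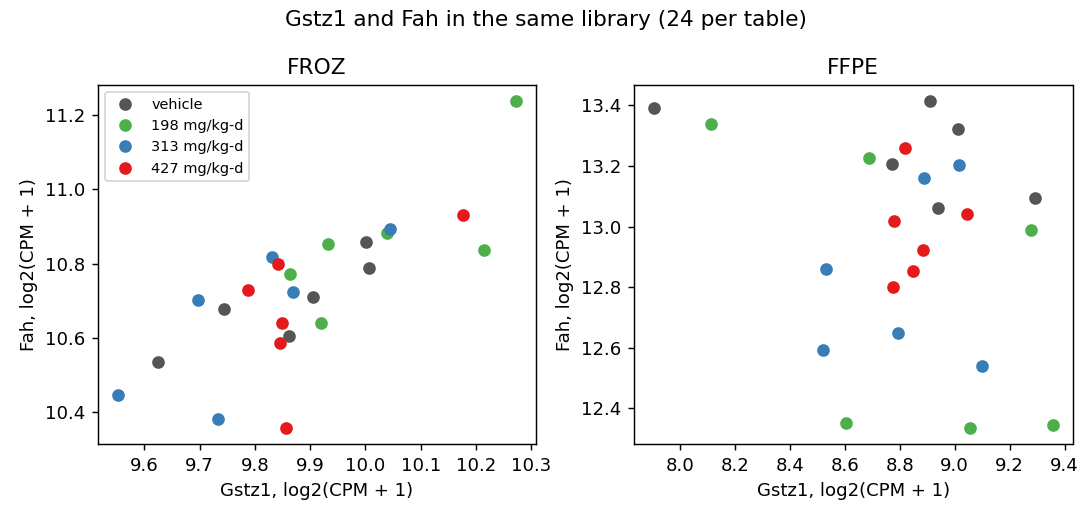
*Fah* level against *Gstz1* level, both log2(CPM + 1), in the 24 FROZ libraries (left) and the 24 FFPE libraries (right), coloured by dose. FROZ points follow a rising band at r = 0.77, and FFPE points do not, at r = -0.29.

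The genes most like each member over the 24 FROZ libraries were sought among the 5872 genes averaging 10 CPM or more, as a description. For *Gstz1* they were *Haao*, an enzyme of tryptophan breakdown (r = 0.87), *Ctdsp1*, a phosphatase (0.86), and *Tspyl1* (0.84). For *Fah* they were *Ndrg2* (0.84), *Rdh14*, a retinol dehydrogenase (0.82), and *Nme3*, a nucleoside diphosphate kinase (0.81). For *Hgd* they were *Pex7*, a peroxisomal import receptor (0.88), *Lrrc28* (0.85) and *Fasn*, the fatty acid synthase (0.81). For *Hpd* they were *Gnmt*, which methylates glycine (0.88), *Etnppl*, a phosphoethanolamine lyase (0.85), and *Pcca*, a subunit of propionyl-CoA carboxylase (0.81). For *Tat* they were *Cyth1* (0.81), the transcription factor *Klf15* (0.80) and *Igf2r*, a receptor that carries lysosomal enzymes (0.79). No member was among the 3 genes most like another member.

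Tetrahydrobiopterin is a cofactor in the metabolism of aromatic amino acids. All 7 genes of the biopterin list that are reported here, which are not the whole list, were listed in FROZ. None passed at the lowest dose. At 313 mg/kg-d 2 rose, none fell and 5 did not pass, and at 427 mg/kg-d 4 rose, none fell and 3 did not pass, beside 26.7% and 30.1% of all genes called in either direction. The median log2 difference of the list was 0.17, 0.16 and 0.23 in order of dose, beside the medians of all genes given above. Under median ratios 1 gene rose at 313 mg/kg-d and 2 rose at 427 mg/kg-d, beside 2378 and 2847 of all 11275 genes called. The medians of the list were then 0.08, 0.02 and 0.08.

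*Gch1*, which makes the first committed precursor of biopterin, had 39.6, 50.0 and 65.7 CPM as lowest, median and highest value in FROZ vehicle livers and 61.7, 86.4 and 111.9 CPM at 427 mg/kg-d. It rose by a log2 difference of 0.70 ± 0.14 at 427 mg/kg-d (limma, FDR = 0.000296) and 0.54 ± 0.14 at 313 mg/kg-d (limma, FDR = 0.00470). *Pcbd2*, a recycling enzyme of the cofactor, had 64.5, 76.7 and 89.5 CPM in vehicle and 99.5, 116 and 132 CPM at 427 mg/kg-d, with no overlap. Its log2 differences were 0.58 ± 0.10 at 427 mg/kg-d (limma, FDR = 5.76e-05) and 0.36 ± 0.10 at 313 mg/kg-d (limma, FDR = 0.00903). The call of *Pcbd2* at 313 mg/kg-d was lost under median ratios (limma, FDR = 0.114). *Gchfr*, a regulator of Gch1, rose by 0.37 ± 0.12 at 427 mg/kg-d (limma, FDR = 0.0219), and *Pcbd1* by 0.23 ± 0.08 (limma, FDR = 0.0371). The calls of *Gchfr* and *Pcbd1* were also lost under median ratios. At 427 mg/kg-d *Qdpr*, *Pts* and *Spr*, which recycle or make the cofactor, were at 0.19 ± 0.10, 0.17 ± 0.09 and 0.15 ± 0.11 and did not pass. In FFPE all 7 were listed and none passed at any dose.

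**Figure D5:**
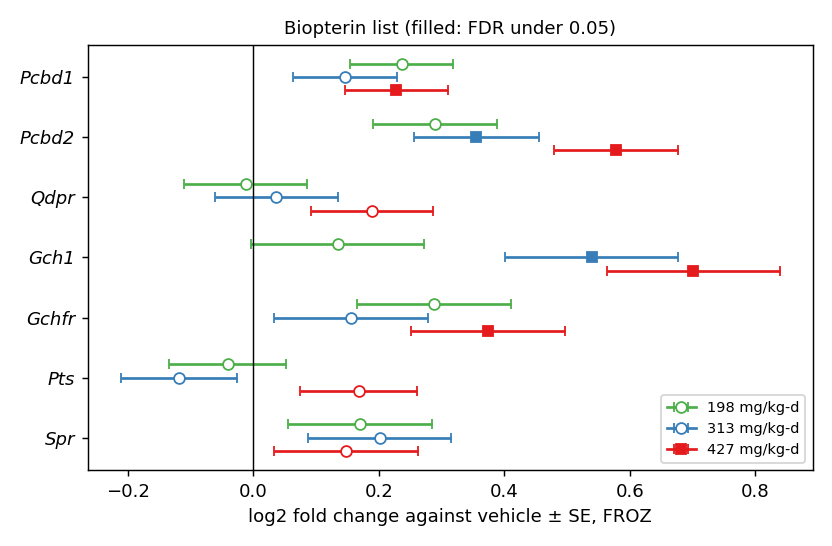
Log2 fold change against vehicle in FROZ livers with its SE from limma, for the 7 genes of the biopterin list, from 198 mg/kg-d (green) over 313 (blue) to 427 mg/kg-d (red). Filled squares have an FDR under 0.05, and all of them, for *Gch1*, *Pcbd2*, *Pcbd1* and *Gchfr*, lie to the right of 0.

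Other genes around the pathway were described by lists, whose counts stand beside the 1.56%, 26.7% and 30.1% of all FROZ genes called in either direction in order of dose. Their counts under median ratios stand beside 124, 2378 and 2847 of the 11275 genes. Of 5 listed genes that handle tyrosine in other ways, 1 rose and 1 fell in FROZ at 313 mg/kg-d, and 3 rose at 427 mg/kg-d. The genes named from these lists were picked with their values already known. The ones called were the aspartate aminotransferases *Got2* (0.43 at 313 and 0.33 at 427 mg/kg-d on the log2 scale) and *Got1* (-0.62 at 313 mg/kg-d), and the monoamine oxidases *Maoa* and *Maob* (both 0.53 at 427 mg/kg-d). Under median ratios 1 rose at 427 mg/kg-d. Of 4 listed genes that supply glutathione, the cosubstrate of Gstz1, 3 rose at 313 mg/kg-d and 2 at 427 mg/kg-d. *Gclc* and *Gss*, which make glutathione, rose at both doses, by 0.47 and 0.78 at 313 mg/kg-d and by 0.81 and 0.61 at 427 mg/kg-d. The glutathione reductase *Gsr* rose by 0.41 at 313 mg/kg-d. Under median ratios 1 of the 4 passed at 313 mg/kg-d and 2 at 427 mg/kg-d. Neither of the 2 listed carriers of aromatic amino acids passed in a comparison of a dose with vehicle. One of them, *Slc43a1*, was lower along the linear dose term (limma, FDR = 0.0390), and at 427 mg/kg-d it had a log2 difference of -0.43 (limma, FDR = 0.0555), which under median ratios was -0.55 and passed (limma, FDR = 0.0174).

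Of 10 listed regulators and hormone-responsive genes, 1 fell at 198 mg/kg-d, 3 fell at 313 mg/kg-d, and 3 fell and 1 rose at 427 mg/kg-d. The list as a whole did not fall evenly. At 198 and 313 mg/kg-d 3 differences were positive and 7 negative, and at 427 mg/kg-d 5 and 5. Its median log2 difference was -0.44, -0.09 and -0.10 in order of dose. *Fkbp5*, a glucocorticoid-induced immunophilin, had differences of -1.29, -1.06 and -0.82 on the log2 scale in order of dose. *Tsc22d3*, another glucocorticoid-induced gene, fell by 1.45 at 313 mg/kg-d and had a log2 difference of -1.28 at 427 mg/kg-d, and *Pck1*, an enzyme of gluconeogenesis, of -1.06 and -0.72. *Tat* stood at -0.52 ± 0.31, -0.12 ± 0.31 and 0.30 ± 0.31 in order of dose in the same livers. *Fkbp5*, *Tsc22d3* and *Pck1* were picked from the negative side of the list with their values known. At 427 mg/kg-d 5 of the 10 listed differences were positive. Whether *Tat* differed from these genes or from the rest of the list was not tested. *Hnf4a*, a hepatocyte transcription factor, rose by 0.45 at 427 mg/kg-d, a call that was lost under median ratios. Of 31 listed genes for the breakdown of other amino acids, 3 rose and 7 fell at 313 mg/kg-d, and 6 rose and 4 fell at 427 mg/kg-d. At each of these doses 21 did not pass, and as deposited the 10 of 31 called were close to the share of all genes. Under median ratios 1 rose and 12 fell at 313 mg/kg-d, beside 2378 of the 11275 genes called, a higher share than in all genes. At 427 mg/kg-d 2 rose and 7 fell, beside 2847 genes called. The members, with 1 of 5 called at 427 mg/kg-d beside 30.1% of all genes, were not called at a higher share than the table as a whole.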

How the data were processed

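TempO-Seq was measured in 48 liver libraries, 1 FROZ and 1 FFPE from each of 24 mice, grouped by the dose and preservation of the labels. Deposited values are log2(CPM + 1), which the authors made per table by trimming reads, aligning them to mm10 with STAR (2.6 per the labels) in Partek Flow, counting by expectation maximization on RefSeq transcripts, removing genes with few reads, and scaling to CPM. Abundant probes were attenuated, none of a member. Here limma 3.58.1 (R 4.3.3), with its variance prior let to follow mean level (limma-trend), was fitted to all genes of a table, two-sided, with an offset of 1 CPM as deposited, which understates the change of low genes. Response differences used the FFPE minus FROZ value of each animal. The labels give the 2 libraries of a liver the same animal number, and their deviations from dose means correlated at a median of 0.128 in the same animal and -0.0232 in others. Reads were recovered from the smallest step of the low values, 96.5 to 97.5% of which were whole in FROZ and 85.7 to 95.8% in FFPE, within 0.1 read. Intervals and floors cover counting error only where they rest on reads. The dose fit was tested on simulated data in FROZ and FFPE, for the highest dose against vehicle and the slope only. The fit of response differences and the other comparisons were not tested in this way. By the rule, named genes were the 5 members, the 3 genes most like each in FROZ, and the biopterin list, from which 1 gene is not reported here. Genes named from other lists were chosen after their values were seen. Members and lists were chosen with earlier results of these data known. Alternatives were another offset (0.1 CPM), scaling by median ratios, a mean of at least 10 CPM, no variance trend, array weights, pairs of groups, leaving out each library, and rescaling to shared genes.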

Additional observations from a re-analysis of the deposited data

Results flagged for a closer look

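In 3 of 36 groups of 6 libraries a member value lay far from the rest of its group, where chance gives about 1 in 20. *Gstz1* in FROZ stood at 10.18 on the log2(CPM + 1) scale in 1 liver at 427 mg/kg-d, and its gap to the next liver was 0.823 of the range of the group. *Tat* in FROZ stood at 3.36 in 1 liver at 427 mg/kg-d, below the other 5, with a gap of 0.710 of the range. *Hpd* in FFPE stood at 12.97 in 1 liver at 427 mg/kg-d, above the other 5, with a gap of 0.654 of the range. The limit for 6 libraries is 0.625.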

How the results depend on the processing

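*Hgd* at 427 mg/kg-d and its dose slope in FROZ passed under every alternative run, with log2 differences of 0.35 to 0.56. Under scaling by median ratios 1 of 5 FROZ members passed at 313 mg/kg-d (*Hpd*), beside 2378 of the 11275 genes. Between 198 and 313 mg/kg-d 2 passed (*Gstz1* and *Hgd*), beside 1215 genes. Under array weights 0 passed in that step, and leaving out 1 library gave 0 to 1, with *Gstz1* (-0.30, limma, FDR = 0.0399) in place of *Hgd* without animal 76. No member passed in FFPE, or for the difference between FFPE and FROZ, under any alternative run. Without the replicate block, which pairs the libraries of an animal, the response difference of *Fah* at 198 mg/kg-d was -0.66 (limma, FDR = 0.217), and 0 of 4 members passed at each dose, so the pairing changed no call.

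Small differences that did not pass turned sign in places, and the cause was not tested. Under median ratios *Gstz1* stood at -0.109 at 427 mg/kg-d in FROZ, and in FFPE at -0.0212 and -0.0518 at 313 and 427 mg/kg-d and -0.0134 per 100 mg/kg-d. *Hpd* stood at -0.0703 at 427 mg/kg-d and -0.0346 per 100 mg/kg-d in FROZ, and -0.0130 per 100 mg/kg-d in FFPE. Under array weights *Gstz1* stood at -0.00137 at 427 mg/kg-d in FROZ, and at -0.0612, -0.0743 and, per 100 mg/kg-d, -0.0186 in FFPE, and *Fah* at -0.00430 between 313 and 427 mg/kg-d. Without FFPE libraries that had over 800 genes at 0, the response difference of *Gstz1* at 198 mg/kg-d was 0.138. Leaving out 1 library gave, in FROZ, -0.0819 to 0.0199 and -0.0736 to 0.0408 for *Fah* at 313 and 427 mg/kg-d, -0.0422 to 0.0765 for *Fah* between them, -0.312 to 0.0819 for *Tat* at 313 mg/kg-d, -0.0206 to 0.0660 for *Gstz1* at 427 mg/kg-d, and -0.00808 to 0.0107 per 100 mg/kg-d for *Hpd*. In FFPE it gave -0.136 to 0.192, -0.176 to 0.101 and -0.127 to 0.151 for *Gstz1* in order of dose, and per 100 mg/kg-d -0.0321 to 0.0309 for *Gstz1* and -0.0157 to 0.0261 for *Hpd*. For the response difference of *Gstz1* it gave -0.348 to 0.0434, -0.136 to 0.144 and -0.192 to 0.0849.

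Among the 5 members depth limits *Tat* and *Hgd* most, with as few as 0 and 82.0 reads in a library, and of the biopterin list *Pts* and *Gchfr* also reached 0 in FFPE. In FFPE *Tat* differed by -2.08 to -0.937 at 198 mg/kg-d and -1.68 to -0.443 at 313 mg/kg-d when 1 library was left out, the smallest without animals 53 and 77. A gene at 0 in an FFPE library was counted with 0 reads, and counting error allows an expected count of up to 3 reads.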
